A study of Mus musculus with 105 samples.

Results

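Contact-inhibited mouse embryonic fibroblasts (CIMEF) were labelled in 2 time courses, which comprised 15 of the 105 samples of the series, and all 1013 miRNAs of their tables are described here. Each EU library holds the small RNA that carried 5-ethynyluridine (5EU), a uridine analogue that cells build into new RNA and that allows this RNA to be pulled down. The cells were embryo-derived fibroblasts of strain C57BL/6J at passages 5 to 15, were kept contact-inhibited for 5 days and then received 400 µM 5EU. Both courses were sampled at 1, 2, 4, 8, 24 and 72 h and at 1 week of labelling, and course 1 also at 0 h, which served as background. The late group comprised the 6 libraries of 24 h, 72 h and 1 week, and the early group the 8 libraries of 1 to 8 h. Dividing fibroblasts (DMEF) of the same strain, passage range and 5EU dose, with 18 EU samples and times up to 72 h, were used in 1 comparison at the end, which took 12 labelled libraries. For 5 of these, all of course 2, the labels list both a first sequencing and a resequencing, and the table does not say which one it holds. The labels do not say whether the 2 courses came from separate cultures, so p-values measure the spread between these libraries, which may be technical. In such bulk libraries, fewer cells of a type and less RNA per cell cannot be told apart.

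A miRNA is cut from a hairpin precursor, and Dicer releases a duplex of both hairpin arms. An Argonaute protein keeps the guide arm and holds it for a long time, while the other arm, the passenger, is usually released and degraded. The guide finds its target mRNAs mainly through its seed, bases 2 to 8. Under continuous labelling the labelled amount of an RNA climbs until loss balances synthesis, so an RNA that is lost quickly levels off early and one that is lost slowly keeps climbing. Fibroblasts that do not divide dilute their miRNAs little, which makes slow loss visible in them.

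The results turn on a few mature sequences, given here 5′ to 3′ with the seed in capitals. They are RefSeq sequences of build GRCm38.p6, which held a sequence for 831 of the 1013 miRNAs and for 347 of the 426 that were tested. The first set holds opposite arms of miR-27a, miR-26a and let-7c precursors that behaved differently under labelling, with the fast arms first. MiR-26a-5p and let-7c-5p each have 2 loci, so their counts may come from either precursor.
miR-27a-5p: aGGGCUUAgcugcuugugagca
miR-27a-3p: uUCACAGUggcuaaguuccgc
miR-26a-2-3p: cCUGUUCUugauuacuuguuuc
miR-26a-1-3p: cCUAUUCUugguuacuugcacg
miR-26a-5p: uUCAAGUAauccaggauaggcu
let-7c-1-3p: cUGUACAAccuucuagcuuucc
let-7c-5p: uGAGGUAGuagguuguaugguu

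The next set holds 4 guides or single-name arms and the minor arm miR-335-3p, which levelled off early, and 2 relatives with the seed AGCAGCA that did not, so that the shared seed can be seen beside the unlike 3′ part.
miR-503-5p: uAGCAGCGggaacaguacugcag
miR-322-5p: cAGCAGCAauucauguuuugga
miR-16-5p: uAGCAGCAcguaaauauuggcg
miR-15a-5p: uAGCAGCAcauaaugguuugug
miR-351-5p: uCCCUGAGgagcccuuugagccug
miR-7a-5p: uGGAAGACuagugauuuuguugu
miR-335-3p: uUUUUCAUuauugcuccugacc

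The last set holds guides whose share of the labelled library grew late.
miR-21a-5p: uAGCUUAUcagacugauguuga
miR-29a-3p: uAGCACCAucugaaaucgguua
miR-34a-5p: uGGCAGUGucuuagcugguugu
miR-20a-5p: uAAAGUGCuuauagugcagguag
miR-17-5p: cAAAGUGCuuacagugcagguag
miR-181c-5p: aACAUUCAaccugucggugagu

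Both arms of miR-27a lie in the gene Mir27a on the plus strand, the 5p arm at chr8:84208685-84208706 and the 3p arm at chr8:84208727-84208747. MiR-503-5p lies at chrX:53054027-53054049 in Mir503 and miR-322-5p at chrX:53054306-53054327 in Mir322, both on the minus strand.

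EU libraries held 50174 to 598887 miRNA counts at the labelled times of course 1, 137943 to 2463188 in course 2 and 21334 at 0 h. A floor of 3 counts therefore equalled 59.8 CPM (miRNA counts scaled to a library total of 1000000) in the shallowest labelled library and 1.22 CPM in the deepest. CPM is used below as the share of the labelled library. The 22, 24 and 26 nt synthetic standards summed to 225 to 2985 counts in course 1 and to 27575 to 264016 in course 2, while the miR-14 and miR-427 standards summed to 103020 to 355542 in course 1 and to 183 to 572 in course 2. Amounts per standard were therefore compared within a course only, as a percentage of the 1-week value of that course. MiRNAs typical of pluripotent, hematopoietic and epithelial cells summed to 0.893, 10.4 and 6.62 CPM in late libraries and to 1.49, 7.75 and 8.16 CPM in early libraries on average, and 10 of the 14 pluripotent markers had no count. Other marker lists stood higher. Neural markers summed to 1636 CPM late and 1410 CPM early, and muscle markers to 40.0 and 77.5 CPM. Liver and endothelial markers summed to 1584 CPM late and 96.9 CPM early. Their late sum includes 8781 CPM of miR-122-5p in the 72 h library of course 2. In the 2 mRNA libraries of CIMEF the 6 fibroblast markers summed to 24700 and 26460 CPM, and no other marker list exceeded 25.6 CPM. Most of the fibroblast sum came from Col1a1, Col1a2, Col3a1 and Vim. Pdgfra had 150 and 505 CPM and Thy1 only 36.4 and 1.17 CPM, beside 25.3 and 8.64 CPM of the epithelial marker Cdh1.

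Labelled miRNA accumulated throughout the week in both courses. Per count of the 22, 24 and 26 nt standards, the total stood at 0.631, 1.94, 5.17, 10.1, 30.7 and 58.9% of its 1-week value at 1, 2, 4, 8, 24 and 72 h of course 1. In course 2 the total stood at 0.897, 2.88, 5.42, 13.2, 28.2 and 70.2% at the same times. The 0 h library of course 1 stood at 1.17%, which is above its 1 h library. Per count of the miR-14 and miR-427 standards the climb was flatter, with 3.75, 6.35, 12.3, 25.05, 33.3 and 75.7% in course 1, 3.03, 8.83, 11.4, 20.5, 28.4 and 75.1% in course 2 and 1.54% at 0 h. On either scale, the pool of labelled miRNA had not levelled off by 72 h.

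**Figure D1:**
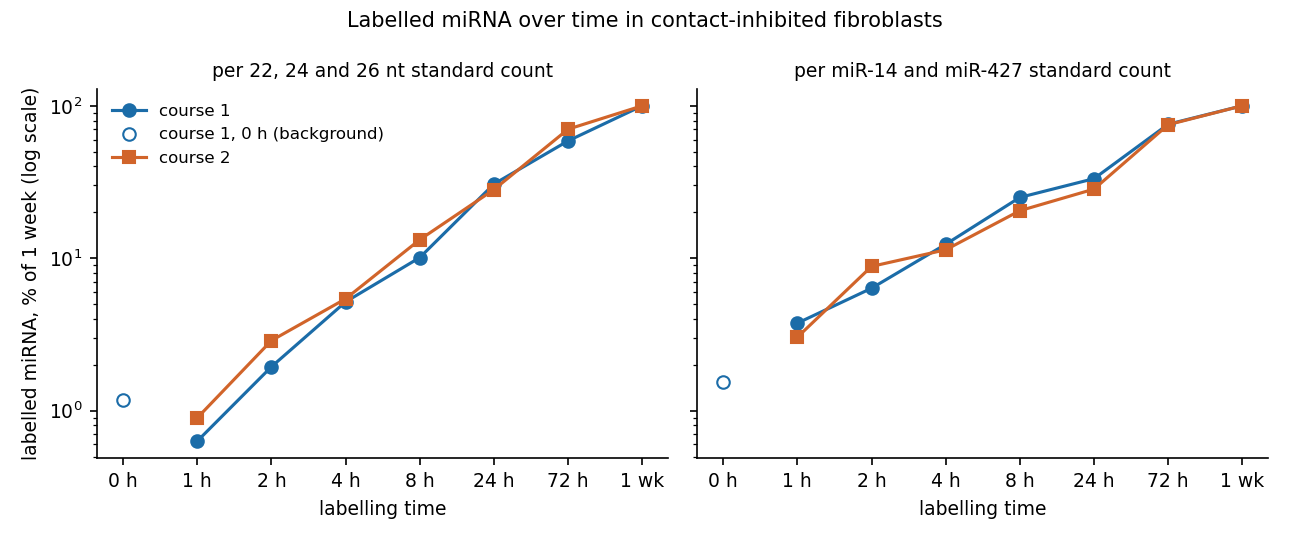
Total labelled miRNA at each labelling time, as a percentage of the 1-week value of the same course (log scale), per count of the 22, 24 and 26 nt standards (left) and of the miR-14 and miR-427 standards (right); each point is 1 library. With the 22, 24 and 26 nt standards the 2 courses stand at 10.1 and 13.2% at 8 h and at 30.7 and 28.2% at 24 h, and the open circle, the 0 h background, lies at 1.17%.

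The composition of the labelled pool shifted strongly between the early and the late hours. Of 426 miRNAs tested, 26 took a larger share late (6.1%) and 129 a smaller one (30.3%), 36.4% in all (edgeR quasi-likelihood test, adjusted p under 0.05). With the course as a replicate block, since libraries of the same course deviated together, 59 were higher (13.8%) and 209 lower (49.1%), 62.9% in all, and these included all 155 called without the block. The median log2 change was -0.46, and it became -0.0090 with TMM scaling, under which 68 were higher and 92 lower. Changes below are of the unscaled share, and they read 0.46 higher relative to the median miRNA. The libraries of 24 h and later all lay below every early library for 70 of the 426 miRNAs (16.4%) and all above for 10 (2.35%). A miRNA could pass the abundance filter through its early or its late libraries alone, so these counts describe the tested miRNAs and not all 1013.

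**Figure D2:**
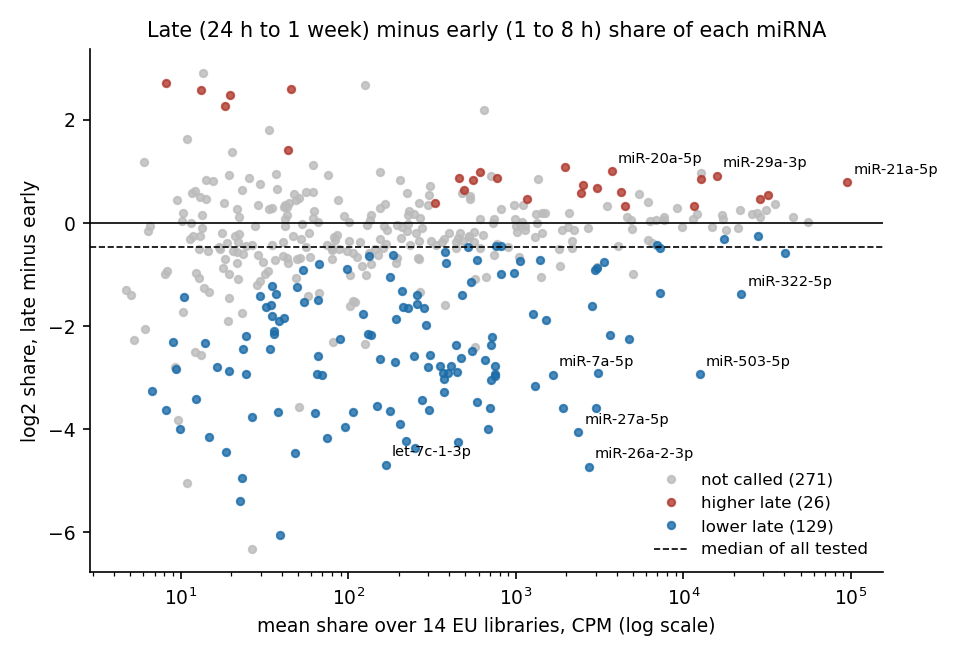
Log2 change of the share of the labelled library, late (24 h to 1 week) minus early (1 to 8 h), against the mean share over the 14 labelled libraries (CPM, log scale); each point is 1 of the 426 tested miRNAs. The 129 miRNAs lower late spread down to log2 changes below -4, whereas those higher late with a mean share of at least 100 CPM reach about 1, and the dashed line marks the median of -0.46.

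The named miRNAs that gained share late were guides, or in 1 case an arm without a partner by name, with a mean share of at least 100 CPM. They were miR-101a-3p.1, miR-20a-5p, miR-181c-5p, miR-29a-3p, miR-181d-5p, miR-224-5p, miR-34a-5p, miR-345-5p, miR-21a-5p and miR-222-3p. MiR-20a-5p, a member of the growth-promoting miR-17-92 cluster, had 1435, 2460.2, 3278, 4231, 5610.4, 5859 and 4355 CPM at 1, 2, 4, 8, 24 and 72 h and 1 week of course 1 and 1298, 2326, 2828, 3877, 5263, 4829 and 4497 CPM in course 2. Every late library of miR-20a-5p lay above every early one. It averaged 5069 ± 608 CPM in late libraries (SD, n = 6) and 2717 ± 1058 CPM in early libraries (SD, n = 8) (log2 change 1.00, SE 0.0778, edgeR adjusted p = 1.07e-05). MiR-34a-5p, which p53 induces and which restrains cell cycle genes, had 5302, 11562, 15306, 15429, 19696, 21458 and 16841 CPM over the same times of course 1 and 3284, 8248, 10156, 10606, 13296, 13792 and 14052 CPM in course 2. Its steepest step was from 1 to 2 h in both courses, and the late and early libraries overlapped (log2 change 0.85, SE 0.20, edgeR adjusted p = 0.00812). MiR-101a-3p.1, known for repressing the histone methyltransferase Ezh2, averaged 2816 ± 340.1 CPM in late libraries (SD, n = 6) and 1349.8 ± 539 CPM in early libraries (SD, n = 8), without overlap between the groups (log2 change 1.09, SE 0.25, edgeR adjusted p = 0.00766).

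MiR-21a-5p, the most abundant miRNA of these libraries and a guide linked to fibroblast activation, had 107147, 80211, 71939, 80669.7, 103392, 134929 and 211112 CPM at 1, 2, 4, 8, 24 and 72 h and 1 week of course 1. In course 2 miR-21a-5p had 59669.6, 50426, 51692, 60118, 75791, 84056 and 151958 CPM. In both courses its share at 2 and 4 h was below that at 1 h, and the 1-week share was the highest of the course. The 0 h background library, at 128902 CPM, also held more miR-21a-5p than the early labelled libraries of course 1. MiR-21a-5p averaged 126873 ± 50565 CPM in late libraries (SD, n = 6) and 70234 ± 18989 CPM in early libraries (SD, n = 8) (log2 change 0.80, SE 0.21, edgeR adjusted p = 0.0161), and it missed the threshold without the 72 h library of course 1 (log2 change 0.67, adjusted p = 0.0535). MiR-29a-3p, which represses collagen mRNAs, had the same dip, with 17160.3, 13527, 11147, 11694, 18688, 27263 and 32410.1 CPM over the 7 times of course 1 and 10432, 9310.0, 8810.4, 9186, 16422, 15933 and 19036 CPM in course 2 (log2 change 0.92, SE 0.20, edgeR adjusted p = 0.00625). Both guides also stood high at 0 h, where miR-29a-3p had 22452 CPM.

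The other named miRNAs that rose were less abundant. MiR-181c-5p had 563 to 1064 CPM late and 232 to 512 CPM early (log2 change 1.00, SE 0.20, edgeR adjusted p = 0.00355). MiR-222-3p, which represses the cell cycle inhibitor p27, had 2553 to 3979 CPM late and 1580.4 to 2293 CPM early (log2 change 0.73, SE 0.13, edgeR adjusted p = 0.00193). Neither of these overlapped between the groups. MiR-224-5p had 356 to 775 CPM late and 101 to 659 CPM early (log2 change 0.87, SE 0.23, edgeR adjusted p = 0.0153), with its lowest values at 1 and 2 h. MiR-181d-5p (596 to 1516 CPM late and 333 to 1005 CPM early, log2 change 0.88, SE 0.30, edgeR adjusted p = 0.049) lost the call when any of 9 libraries was left out: 1 h, 24 h, 72 h or 1 week of course 1, or 1, 2, 4 or 8 h or 1 week of course 2. MiR-345-5p (482 to 1026 CPM late and 188 to 653 CPM early, log2 change 0.83, SE 0.25, edgeR adjusted p = 0.0294) lost it without any of 7: 24 h, 72 h or 1 week of course 1, or 1, 2, 4 or 8 h of course 2. Over all 14 omissions the log2 changes ran from 0.67 to 1.04 for miR-181d-5p and from 0.67 to 0.95 for miR-345-5p. The other 17 of the 20 miRNAs named for the size of their change passed the test without any 1 library.

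The other miRNAs with the highest shares moved less. Let-7i-5p, a let-7 guide, had 44536 to 49649 CPM late and 33151 to 52527 CPM early, and miR-24-3p, a guide known to repress cell cycle genes, had 27286 to 52957 CPM late and 22163 to 40722 CPM early. Neither passed the test. With TMM scaling both were called higher late, as were miR-26a-5p and miR-27a-3p. MiR-125b-5p was higher late without overlap, with 34522 to 49736 CPM late and 19138 to 32637 CPM early (log2 change 0.54, SE 0.0968, edgeR adjusted p = 0.00222), and miR-16-5p had 24537 to 42878 CPM late and 18863 to 29088 CPM early. MiR-199ab-3p, typical of mesenchymal cells, was lower, with 21859.5 to 38715 CPM late and 38056 to 61707 CPM early (log2 change -0.58, SE 0.10, edgeR adjusted p = 0.00222), and its call was lost with TMM scaling. Let-7c-5p was lower too, with 19748 to 29062 CPM late and 26856 to 34395 CPM early (log2 change -0.25, SE 0.0821, edgeR adjusted p = 0.0441), but its log2 change was 0.22 with TMM scaling and it kept the call in 2 of 14 omissions.

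The 10 named miRNAs that lost most share were all rare in input libraries, where none of them exceeded 83.7 CPM over a course. MiR-26a-2-3p, from the opposite arm of a miR-26a precursor, had 7972, 3961, 1391, 726, 222, 67.4 and 56.8 CPM at 1, 2, 4, 8, 24 and 72 h and 1 week of course 1, 14520.5, 5176, 2439, 1151, 294, 115 and 77.9 CPM in course 2 and 141 CPM at 0 h. Its share fell at every step of both courses. It averaged 139 ± 97.3 CPM in late libraries (SD, n = 6) and 4667 ± 4665 CPM in early libraries (SD, n = 8) (log2 change -4.72, SE 0.28, edgeR adjusted p = 3.94e-06). Over all input times it held only 11.5 and 25.8 CPM in the 2 courses. Its guide miR-26a-5p, which targets Ezh2 and cyclins, had 43888 to 68063 CPM late and 45183 to 68067 CPM early and did not pass the test.

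MiR-27a-5p had 4484, 2658, 1009.9, 502, 143, 103 and 65.1 CPM over the 7 times of course 1 and 13882, 5342, 2713, 1298, 378, 228 and 153 CPM in course 2 (log2 change -4.05, SE 0.53, edgeR adjusted p = 0.000338). Its guide miR-27a-3p, a regulator of adipocyte genes, had 25529 to 45116 CPM late and 15984 to 40469 CPM early and did not pass the test. Let-7c-1-3p stood at 379, 427, 145, 64.3, 9.88, 3.37 and 3.34 CPM in course 1 and at 652, 363, 174, 78.7, 18.8, 11.9 and 6.5 CPM in course 2 (log2 change -4.68, SE 0.40, edgeR adjusted p = 1.86e-05), and late libraries of course 1 held it below the floor of 3 counts. The remaining 7 named fallers were miR-23b-5p, miR-26a-1-3p, miR-181b-1-3p, miR-23a-5p, miR-351-3p, miR-193b-5p and miR-450a-1-3p, with log2 changes of -4.37, -4.25, -4.23, -3.99, -3.89, -3.67 and -3.64 in that order. For each of the 10 fallers every late library lay below every early one.

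**Figure D3:**
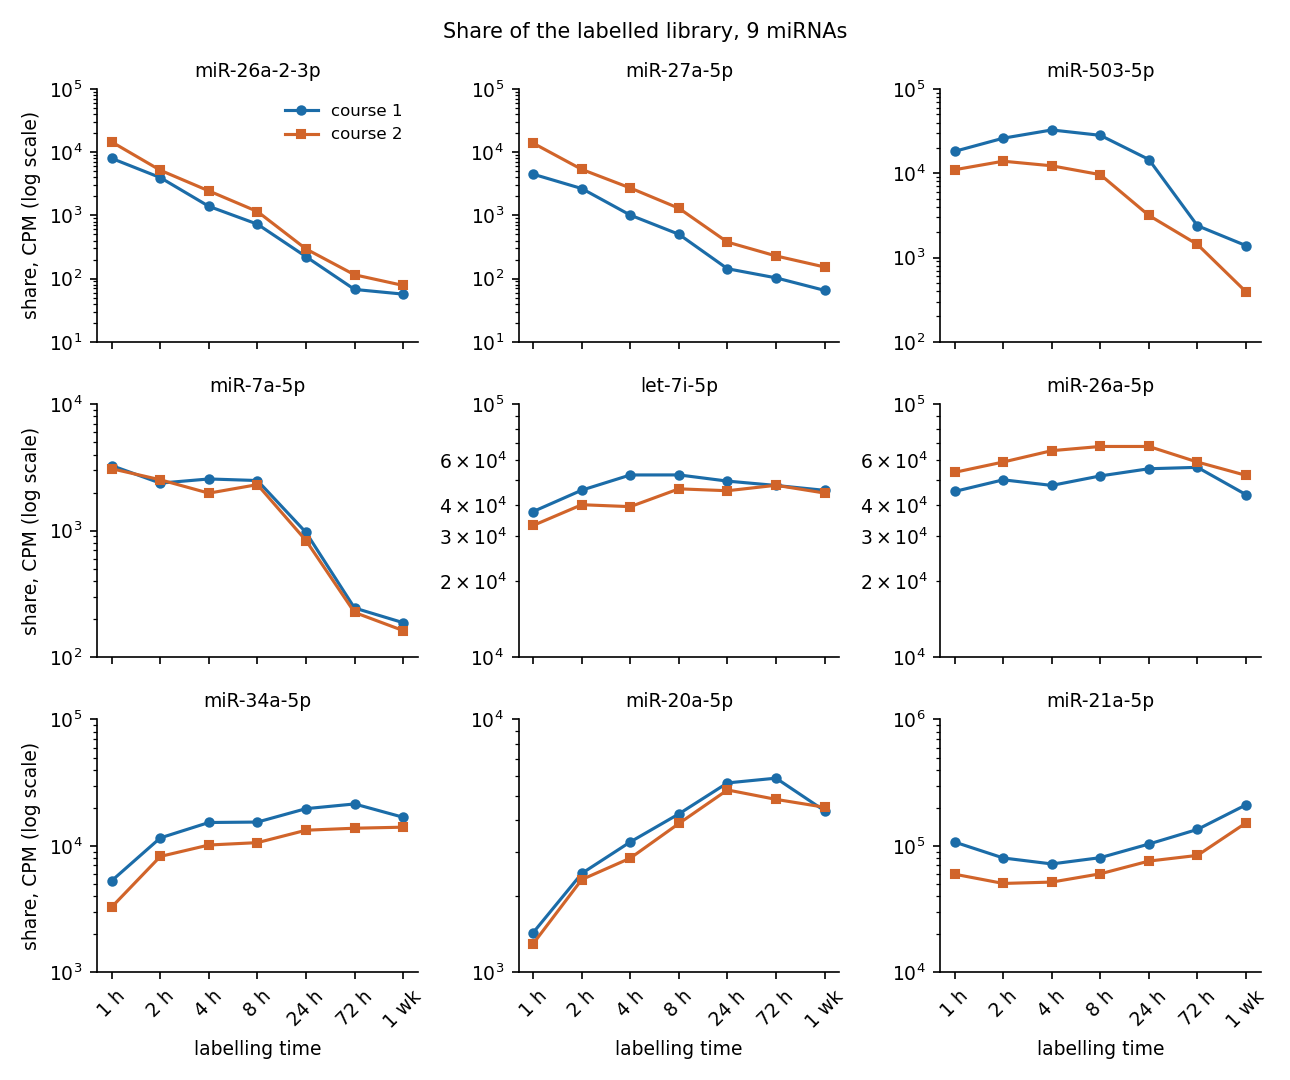
Share of the labelled library (CPM, log scale) at each labelling time for 9 miRNAs, 1 point per library and 1 line per course. MiR-26a-2-3p and miR-27a-5p fall at every step, miR-503-5p and miR-7a-5p stand lower at 24 h and later than at 8 h, let-7i-5p and miR-26a-5p did not pass the test, and miR-34a-5p, miR-20a-5p and miR-21a-5p stand higher late than early.

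Passenger arms made up most of the losses. Taking the arm with more input counts as the guide, 78 of 141 tested passengers took a smaller share late (55.3%) and 2 a larger one (1.42%), against 20 lower (10.4%) and 19 higher (9.90%) of 192 guides. Of 93 arms with no partner by name, 31 were lower and 5 higher. With TMM scaling the calls were 61 lower and 3 higher among passengers, against 6 lower and 53 higher among guides. With the replicate block 111 passengers were lower and 4 higher, against 56 lower and 44 higher guides. Of 397 hairpins with both arms in the table, 61 had at least 100 EU counts on each arm in each course. The passenger's log2 change was below that of its guide in 57 of these 61, with medians of -1.76 for passengers and 0.064 for guides (-1.29 and 0.52 with TMM scaling). The guide was set by its input level, and an arm that is lost slowly builds up to a higher level. Differences between the arms thus follow in part from this rule, and the size of that part was not tested. An arm could also reach the 100 EU counts through its early libraries alone. Passengers had a median of 6 uridines and guides also of 6; each uridine is a place where 5EU can stand.

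Within a hairpin the median passenger had its largest part of the labelled counts at 1 h. Over the 61 hairpins its median percentage of the counts of both arms was 24.7, 15.1, 11.8, 8.05, 4.33, 4.27 and 4.24% at 1, 2, 4, 8, 24 and 72 h and 1 week of course 1, and 34.7, 19.9, 12.7, 8.75, 5.31, 4.53 and 4.20% in course 2. Input libraries had a median of 2.26% in course 1 and 2.83% in course 2. The passenger percentage thus fell most in the first 24 h and little after that, and it was still above the input median at 1 week.

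Hairpins differed in how far and how fast the passenger fell. For miR-27a it made up 21.9, 9.87, 3.87, 2.1, 0.524, 0.376 and 0.254% over the 7 times of course 1 and 33.6, 12.9, 6.28, 3.45, 0.83, 0.525 and 0.43% in course 2, against 0.169 and 0.183% in input. For miR-22, whose guide miR-22-3p is abundant in muscle, it made up 32.2, 20.0, 10.5, 7.65, 4.06, 3.94 and 4.24% in course 1 and 39.5, 20.1, 11.5, 8.02, 5.11, 4.64 and 4.62% in course 2. The miR-22 passenger stayed between 3.94 and 5.11% from 24 h on, whereas that of miR-27a kept falling. For miR-29a it made up 32.5, 21.8, 14.6, 12.3, 7.19, 7.65 and 7.55% in course 1 and 48, 29.4, 16.8, 14.3, 8.51, 6.9 and 6.69% in course 2, so miR-29a-5p stayed well above its input percentage of 1.62 and 2.31%.

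The passenger of miR-145a, a hairpin known for its role in smooth muscle, changed least among the 10 hairpins with most input counts, with 4.7, 5.21, 4.61, 5.12, 4.68, 4.27 and 4.4% in course 1 and 4.72, 5.37, 4.26, 3.46, 3.69, 3.27 and 2.67% in course 2. For let-7i the passenger made up 4.45, 2.47, 1.58, 1.16, 1.32, 1.2 and 1.22% in course 1 and 7.09, 3.81, 2.46, 1.43, 1.15, 1.2 and 1.36% in course 2, and it stayed between 1.15 and 1.43% from 8 h on. Among the rest of the 10, the 1 h and 1-week percentages of course 1 were 26.2 and 3.19% for miR-143, 13.6 and 0.121% for miR-23a, 29.1 and 2.83% for miR-125a, 18 and 0.688% for miR-27b and 2.02 and 0.0474% for miR-21a. All of these were lower at 1 week than at 1 h.

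The 4 hairpins whose passenger did not have the lower log2 change were miR-214, miR-322, miR-503 and miR-151. In miR-214 the arm that is rare in input, miR-214-5p, made up 62.2, 75.6, 84.1, 92, 79.3, 89 and 93.6% of the labelled counts over the 7 times of course 1 and 81.8, 91.5, 95.5, 96.2, 96.3, 98.8 and 99.5% in course 2, against 10.7 and 11.9% in input. The arm called guide from input, miR-214-3p, was thus the minor labelled arm at every time. MiR-214-3p holds 1 uridine and miR-214-5p 8, and the part of this difference in the labelled percentages was not tested. In miR-503 the passenger made up 11, 6.04, 2.86, 2.44, 2.54, 11 and 11.8% in course 1 and 12.3, 5.85, 3.65, 3.03, 6.53, 9.75 and 17.7% in course 2, lowest at 8 h and higher again late, as the guide itself fell.

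**Figure D4:**
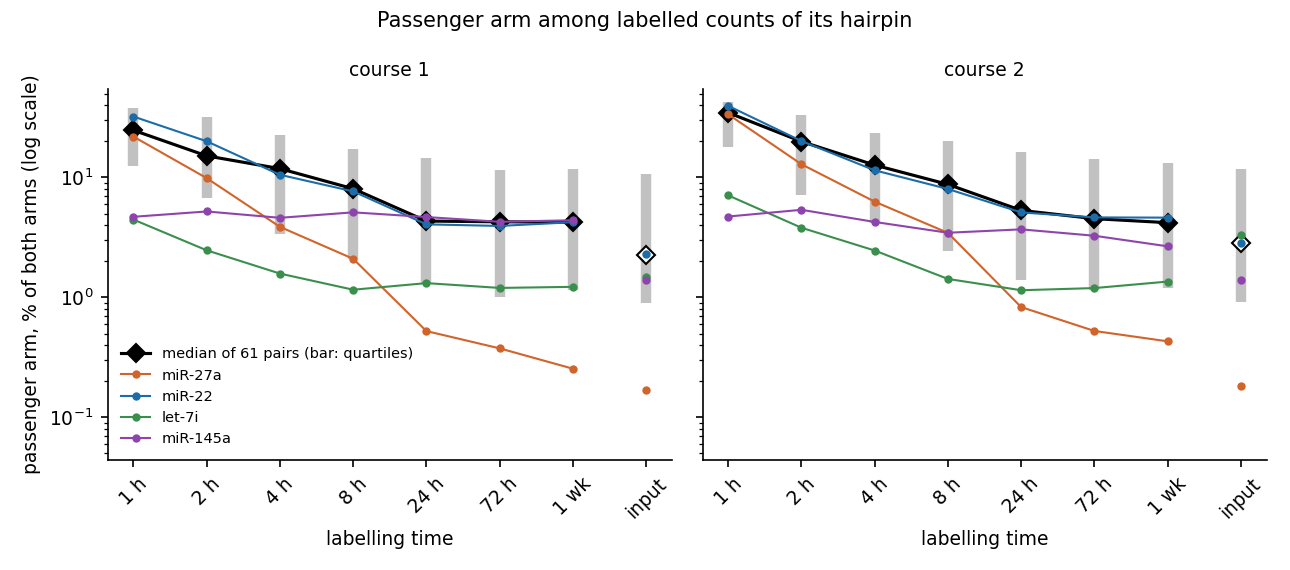
Passenger arm as a percentage of the labelled counts of both arms (log scale) at each labelling time and in input, for each course; black diamonds are medians of 61 hairpins and grey bars their quartiles. The median falls to 4.24% in course 1 and 4.20% in course 2 at 1 week, against 24.7 and 34.7% at 1 h, while miR-145a stays between 2.67 and 5.37%.

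With the 22, 24 and 26 nt standards, more passengers than guides appeared at 1 h, and more passengers than guides did not meet the rule of appearance at any time. A miRNA was called present from the first time at which it and every later library of course 1 had at least 10 counts and over 2 times the 0 h amount per 22, 24 and 26 nt standard. By this rule 50 miRNAs appeared at 1 h, 77 at 2 h, 114 at 4 h, 26 at 8 h, 8 at 24 h, 48 at 72 h and 18 at 1 week, and 672 of the 1013 did not meet it. The 672 include 283 miRNAs without a count in any labelled library. Since each later library must hold 10 counts, the rule depends on depth as well as on labelling. It also leaves out miRNAs that appeared early and then faded. Let-7c-1-3p had 0 counts at 0 h, 19, 56, 34 and 21 at 1, 2, 4 and 8 h and 2 at each later time. MiR-23b-5p had 0 counts at 0 h, 34, 42, 32 and 17 at 1 to 8 h and 2, 5 and 6 later. Arms that did not meet the rule can thus include early ones. The 24 h library of course 1 held 202482 miRNA counts and the 72 h library 593779. Of the tested miRNAs, 32 of 141 passengers (22.7%) and 4 of 192 guides (2.08%) appeared at 1 h. There were 22 passengers (15.6%) and 46 guides (24.0%) at 2 h, and 13 passengers (9.22%) and 81 guides (42.2%) at 4 h. At 72 h 20 passengers (14.2%) and 19 guides (9.90%) appeared, and 45 passengers (31.9%) and 18 guides (9.38%) did not meet the rule at any time. With the miR-14 and miR-427 standards 48 miRNAs likewise appeared at 72 h, and 45 passengers likewise did not meet the rule. The parts of depth and of fading in these counts were not tested. Early appearance here depends on the standard, since with the miR-14 and miR-427 standards 137 miRNAs appeared at 1 h, among them 52 passengers (36.9%) and 59 guides (30.7%). The 5 most abundant miRNAs that appeared at 1 h, listed after their values were seen, were miR-199b-5p, miR-335-3p, miR-22-5p, miR-125b-1-3p and miR-29a-5p.

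At 1 and 8 h the median passenger stood nearer to its 1-week amount than the median guide did. At 1 h the median passenger stood at 2.25% of its 1-week amount per standard in course 1 and at 6.97% in course 2, against 0.580 and 0.743% for the median guide. The 0 h amount was not subtracted from these percentages. The total of the 0 h library of course 1 stood at 1.17%, so the 0.580% of the median guide does not stand above that background. At 8 h the median passenger stood at 16.8% in course 1 and 26.7% in course 2, and the median guide at 11.4 and 15.4%. By 24 h the medians lay close together, at 34.5 and 32.7% for passengers and at 33.9 and 30.8% for guides.

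Half-lives of the approach to the final level ran from 0.560 to 750.2 h, as geometric means of both courses, among the 205 miRNAs fitted inside the grid in both. They were fitted per course as y = A(1 - exp(-kt)) to the amount per standard, and are described without a test. In course 1, 281 miRNAs could be fitted, with a median of 54.8 h and quartiles of 16.3 and 124 h. In course 2, 316 could be fitted, with a median of 36.0 h and quartiles of 11.5 and 76.3 h. Half-lives under 24 h numbered 82 in course 1 and 119 in course 2. Half-lives over 1 week numbered 49 and 36. Of those 205 miRNAs, 129 agreed within 2-fold (Pearson r of the logs 0.917, Spearman rho 0.874 across miRNAs, which share libraries and standards). Lengths depended on the standards: with miR-14 and miR-427 the medians were 15.9 h in course 1 and 11.2 h in course 2. The order of miRNAs depended on them little, with a rho of 0.967 between the 2 sets of standards over the 174 miRNAs inside the grid with both. With miR-14 and miR-427, 29 fits of course 1 and 38 of course 2 ended at the lower grid limit. The rho therefore does not cover the order of the fastest miRNAs.

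The 8 shortest half-lives that agreed between the courses were of passengers and of 3p or 5p arms without a partner by name. MiR-191-3p had a fitted half-life of 0.496 h in course 1 and 0.646 h in course 2. That of let-7c-1-3p was 0.806 h in course 1 and 0.485 h in course 2, and that of miR-30d-3p 1.31 h in course 1 and 0.738 h in course 2. Let-7c-1-3p had 2 counts in each late library of course 1. It passed the minimum of 100 EU counts there through its early libraries, so its late level is poorly known. MiR-130a-5p (1.63 h in course 1 and 1.15 h in course 2), miR-29b-1-5p (1.91 h in course 1 and 1.01 h in course 2), miR-450a-1-3p (1.91 h in course 1 and 1.28 h in course 2), miR-301a-5p (2.04 h in course 1 and 1.63 h in course 2) and miR-92a-1-5p (2.33 h in course 1 and 1.75 h in course 2) followed. An early climb was followed by uneven values: miR-130a-5p stood at 20.9, 47.8, 61.1, 57.3, 46.1 and 71.7% of its 1-week amount at 1, 2, 4, 8, 24 and 72 h of course 1 and at 30.6, 56.9, 62.3, 72.7, 43 and 83.6% in course 2. As means of both courses, miR-191-3p stood at only 55.3% at 8 h and 55.5% at 24 h, and miR-30d-3p at 66.3 and 57.0%. Half-lives under 1 h lie below the first labelling time and give no reliable length. With the miR-14 and miR-427 standards miR-191-3p, miR-30d-3p, miR-130a-5p and miR-301a-5p ended at the lower grid limit of 0.25 h in both courses.

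The 8 longest half-lives that agreed between the courses were of guides and of miR-92a-3p, 4 of them from miR-17-92 and its relatives. MiR-27b-3p had a half-life of 246 h in course 1 and 151 h in course 2, and miR-30a-5p of 148 h in course 1 and 127 h in course 2. From the miR-17-92 family, miR-19a-3p had 215 h in course 1 and 127 h in course 2, miR-92a-3p 127 h in course 1 and 180.5 h in course 2, miR-17-5p 158 h in course 1 and 116 h in course 2 and miR-106b-5p 151 h in course 1 and 111 h in course 2. MiR-500-3p (111 h in course 1 and 173 h in course 2) and miR-125a-5p (97.2 h in course 1 and 162 h in course 2) complete the set. Some abundant guides were slower still in at least 1 course: miR-21a-5p ended at the upper grid limit of 1680 h in both, and stood at 0.321, 0.738, 1.76, 3.86, 15 and 37.6% of its 1-week amount at 1, 2, 4, 8, 24 and 72 h of course 1 and at 0.352, 0.957, 1.84, 5.24, 14.1 and 38.8% in course 2. With the miR-14 and miR-427 standards miR-21a-5p had 129.6 h in course 1 and 65.3 h in course 2, so a fitted half-life far beyond the week of labelling gives no reliable length.

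**Figure D5:**
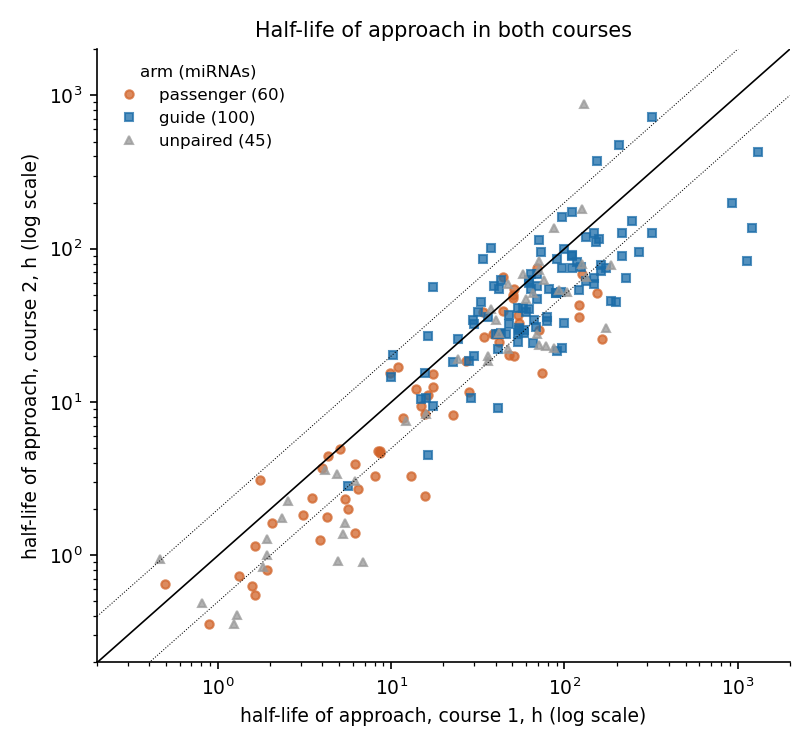
Half-life of the approach to the final level in course 1 against course 2 (h, log scales) for the 205 miRNAs fitted inside the grid in both courses, marked by arm; the solid line marks equality and dotted lines 2-fold differences. Of these, 129 lie within 2-fold, and passengers such as miR-191-3p at 0.496 and 0.646 h lie at the lower left.

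Over 60 hairpins with half-lives for both arms, the passenger's was shorter than the guide's in both courses for 53. Medians were 12.3 h for passengers and 99.4 h for guides in course 1, and 8.02 and 61.8 h in course 2. With the miR-14 and miR-427 standards they were 2.06 and 23.7 h in course 1 and 1.34 and 17.8 h in course 2. All of these medians include fits that ended at a grid limit. Among them were miR-21a-5p at 1680 h in both courses and miR-23a-5p at 0.25 h in course 2. With the miR-14 and miR-427 standards miR-27a-5p ended at 0.25 h in both. The differences between the arms here too follow in part from naming the guide by its higher input level. Half-life and the number of uridines were nearly unrelated across 177 miRNAs (Spearman rho -0.15), as were the log2 share change and uridines across 347 (rho -9.5e-05).

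For a small set of miRNAs the labelled amount was highest by 24 h and lower at 1 week. Per standard, 353 of the 426 tested miRNAs were highest at 1 week in course 1 and 292 in course 2, while 21 had their peak by 24 h in both courses. The 4 most abundant of these 21, listed after their values were seen, were miR-503-5p, miR-335-3p, miR-26a-2-3p and miR-7a-5p. MiR-503-5p, a guide of the X-linked miR-322 and miR-503 cluster that represses cyclins, stood at 8.3, 36.6, 122, 206, 323 and 101% of its 1-week amount at 1, 2, 4, 8, 24 and 72 h of course 1 and at 25.2, 102, 169.6, 325, 227 and 256% in course 2. With the course as a replicate block it was lower at 1 week than at 24 h (log2 change -1.52, SE 0.32, adjusted p = 5.01e-05), as were miR-322-5p (log2 change -0.67, SE 0.29, adjusted p = 0.0359) and miR-543-3p (log2 change -1.58, SE 0.64, adjusted p = 0.0255). These were 3 of 426 (0.704%), while 304 were higher at 1 week (71.4%).

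The fall of miR-503-5p was also seen as a share. It had 18197, 26072, 32658, 28195, 14564, 2385 and 1384 CPM over the 7 times of course 1 and 11012, 13901, 12260.0, 9628, 3157, 1429 and 392 CPM in course 2. It averaged 3885 ± 5316 CPM in late libraries (SD, n = 6) and 18990.3 ± 8822 CPM in early libraries (SD, n = 8) (log2 change -2.93, SE 0.54, edgeR adjusted p = 0.00243). A fit of course 1 alone took early and late as 2 groups, with the time points as replicates. In that fit miR-503-5p did not pass the edgeR test (log2 change -2.11, adjusted p = 0.068). Its input share was lower late as well: input libraries held 3959, 4408, 4397, 4546, 4976, 2989, 1067 and 1048 CPM at 0, 1, 2, 4, 8, 24 and 72 h and 1 week of course 1 and 2168, 2205, 2143, 1839.9, 1007, 898 and 446 CPM from 1 h to 1 week of course 2. The input share of miR-503-5p was thus lowest at 1 week in both courses. A falling input level departs from the steady state that the half-life model assumes, and the fitted half-lives of 5.63 h in course 1 and 2.84 h in course 2 carry that limit.

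MiR-322-5p, the most abundant guide of the cluster, had 27305, 34107, 43569, 46739.5, 36230.4, 14135 and 7099.8 CPM over the 7 times of course 1 and 20240.2, 18779, 21823, 17138, 10903, 10599.9 and 1858 CPM in course 2. It averaged 13471 ± 11906 CPM in late libraries (SD, n = 6) and 28713 ± 11518 CPM in early libraries (SD, n = 8) (log2 change -1.38, SE 0.44, edgeR adjusted p = 0.0359). The groups overlapped. The call was lost with TMM scaling (log2 change -0.97, adjusted p = 0.107) and without any of 9 libraries: 1, 2, 4, 8 or 72 h of course 1, or 1, 24 or 72 h or 1 week of course 2 (log2 changes from -1.80 to -1.16 over all 14 omissions). Its input share stood at 12044, 9138, 12045, 12193, 12782, 12411, 8527 and 4579 CPM in course 1 from 0 h and at 8339.9, 6127, 7656, 7358, 7487, 6028 and 2217 CPM in course 2 from 1 h, lowest at 1 week in both. Most of the cluster moved one way: 11 of its 13 tested arms were lower late and 0 higher (8 lower and 0 higher with TMM scaling, 13 lower and 0 higher with the replicate block), with a median log2 change of -1.53 against -0.46 over all tested miRNAs. MiR-351-5p, the cluster's relative of miR-125, had 9049, 14357, 14403, 14194, 9912, 5428 and 2742 CPM in course 1 and 5742, 6604, 5865, 5641, 3719, 2386 and 969 CPM in course 2 (log2 change -1.36, SE 0.44, edgeR adjusted p = 0.0381). It missed the threshold with TMM scaling and without any of 8 libraries: 1, 2, 4 or 8 h of course 1, or 1, 24 or 72 h or 1 week of course 2 (log2 changes from -1.67 to -1.15 over the omissions). Half-lives of the cluster ran from 0.951 h for miR-351-3p to 21.4 h for miR-450a-5p as geometric means of both courses.

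MiR-7a-5p, whose decay the long noncoding RNA Cyrano is known to trigger, held 3269, 2376, 2563, 2491, 968, 244 and 187 CPM at the 7 times of course 1 and 3088, 2525, 1979, 2312, 835, 225 and 162 CPM in course 2. Its share stood between 1979 and 3269 CPM up to 8 h and was lower at each later time. Late libraries averaged 437 ± 364 CPM (SD, n = 6) and early libraries 2575 ± 417 CPM (SD, n = 8), without overlap (log2 change -2.94, SE 0.11, edgeR adjusted p = 1.7e-07). Per standard it stood at 11, 24.7, 70.9, 135, 159 and 76.9% of its 1-week amount at 1, 2, 4, 8, 24 and 72 h of course 1 and at 17.1, 44.9, 66.2, 189, 145 and 97.7% in course 2, with half-lives of 4.82 h in course 1 and 3.39 h in course 2. The fitted curve can only climb, so these half-lives do not describe the fall after the peak and carry that limit. Input libraries held between 57.5 and 142 CPM of miR-7a-5p in course 1, highest at 8 and 24 h. Each labelled library held a larger share of miR-7a-5p than any input library.

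MiR-335-3p, the minor arm in input of a hairpin within the Mest gene, had 9945, 11516, 9367, 10288, 5423, 1839 and 1187 CPM over the 7 times of course 1 and 3523, 3951, 3689, 3472, 1597, 509 and 316 CPM in course 2 (log2 change -2.26, SE 0.60, edgeR adjusted p = 0.0164). Per count of the 22, 24 and 26 nt standards it first passed its 1-week amount at 24 h in course 1 and at 8 h in course 2. It stood at 5.29, 18.8, 40.8, 87.5, 140.1 and 91.2% at 1, 2, 4, 8, 24 and 72 h of course 1 and at 10.0, 36.1, 63.3, 145, 143 and 113% in course 2. With the miR-14 and miR-427 standards miR-335-3p passed its 1-week amount earlier in both courses. Without the 24 h library of course 2 the share change was -2.05 and missed the threshold (adjusted p = 0.0503). Its input share was also lower late, with 777, 608, 594, 621, 731, 728, 499 and 392 CPM from 0 h to 1 week of course 1 and 289.6, 322, 304, 313, 308, 199 and 149 CPM from 1 h to 1 week of course 2. MiR-7a-5p, miR-503-5p, miR-322-5p and miR-335-3p are listed among substrates of target-directed decay, in which an extensively paired target releases a guide for destruction. Of the 7 tested miRNAs on that list 4 were lower late and 0 higher (3 lower and 2 higher with TMM scaling, 4 lower and 1 higher with the replicate block), beside 30.3% lower over all tested miRNAs. The other 3, miR-29b-3p, miR-30b-5p and miR-30c-5p, had log2 changes that did not pass the test and half-lives of at least 63.9 h.

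Families with a common seed levelled off at like or at unlike times. Of 24 seeds shared by at least 2 fitted miRNAs, 10 had members within 2-fold of each other and 5 spanned over 5-fold, as geometric means of both courses. The 9 let-7 guides with seed GAGGUAG ran from 46.9 h for let-7b-5p to 120 h for let-7f-5p. Among 6 with seed AGCAGCA, miR-322-5p at 12.7 h stood apart from miR-16-5p at 109 h. With seed CCCUGAG, miR-351-5p had 13.0 h and miR-125b-5p 339 h, and with GGCAGUG, miR-449a-5p had 20.3 h and miR-34a-5p 482 h. The values of 339 and 482 h lie beyond the week of labelling and give no reliable length. With the miR-14 and miR-427 standards miR-34a-5p had 33.0 h in course 1 and 45.9 h in course 2. MiR-322-5p and miR-351-5p are of the same cluster. The input share of miR-322-5p was lowest at 1 week, so its half-life carries the steady-state limit given for miR-503-5p. Members with 1 seed thus differed in fitted half-life in these groups, as in the pair miR-322-5p and miR-16-5p printed above.

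The families are described by their calls, beside 30.3% lower and 6.1% higher over all 426 tested miRNAs. With so few members, many of these counts are near those shares. Of 9 tested let-7 guides, which repress growth genes, 2 were lower late and 0 higher, but 0 were lower and 6 higher with TMM scaling, and 3 lower and 1 higher with the replicate block. Of 10 let-7 passengers 9 were lower (7 with TMM scaling, 10 with the replicate block) and 0 higher under each. In the miR-17-92 cluster, 4 of 11 arms were higher late, namely miR-17-5p, miR-19b-3p, miR-20a-5p and miR-92a-3p, and 3 were lower, namely miR-20a-3p, miR-19b-1-5p and miR-92a-1-5p (6 higher and 3 lower with TMM scaling, 5 and 4 with the block). Of 7 arms of the miR-29 family, miR-29a-3p and miR-29c-3p were higher and 3 of the 5p arms lower (4 higher and 1 lower with TMM scaling, 4 and 3 with the block). Of 11 in the miR-30 family miR-30a-5p was higher and 7 were lower, 6 of them 3p arms (3 higher and 6 lower with TMM scaling, 1 and 7 with the block). Of 12 in the miR-15/16 family miR-16-5p was higher (log2 change 0.47, SE 0.0819, edgeR adjusted p = 0.00189) and 7 were lower, of which 6 were 3p arms and 1 was miR-322-5p (2 higher and 5 lower with TMM scaling, 1 and 8 with the block). The Dlk1-Dio3 cluster had 0 of 41 called in either direction (also 0 with TMM scaling, 3 higher and 17 lower with the block). Its summed share ran from 311 to 13754 CPM in late libraries and from 335 to 16361 CPM in early libraries, with the low values in course 2.

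Smaller families held called arms in both directions or in 1. Of 8 miR-181 arms miR-181c-5p and miR-181d-5p were higher and 3 lower, all 3p arms (2 higher and 3 lower with TMM scaling, 2 and 4 with the block). Of 11 miR-99/100/125 arms miR-125b-5p was higher and 5 of the 3p arms lower (3 higher and 5 lower with TMM scaling, 2 and 5 with the block). Of 11 miR-23/27/24 arms miR-27b-3p was higher and 5 of the 5p arms lower (4 higher and 5 lower with TMM scaling, 4 and 6 with the block). MiR-34a-5p was higher and miR-34a-3p lower of 6 in the miR-34 family (1 higher and 1 lower with TMM scaling, 1 and 2 with the block). MiR-222-3p was higher and miR-221-5p lower of 4 in miR-221 and miR-222 (2 and 1 with TMM scaling, 1 and 2 with the block). MiR-21a-5p was higher and miR-21a-3p lower under each of the 3 fits.

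Some families had lower arms alone. MiR-93-3p and miR-25-5p were lower of 6 from the miR-106b and miR-25 cluster (2 higher and 2 lower with TMM scaling, 2 and 3 with the block). MiR-143-5p and miR-145a-3p were lower of 4 from miR-143 and miR-145 (1 higher and 1 lower with TMM scaling, 1 and 2 with the block). Of 4 from miR-199 and miR-214, miR-199ab-3p was lower (0 called with TMM scaling, 4 lower with the block). Both miR-7 arms were lower under each of the 3 fits. MiR-148a-3p, miR-148b-3p and miR-152-3p, which share the seed CAGUGCA, were lower of 7 in miR-130, miR-301, miR-148 and miR-152 (2 higher and 0 lower with TMM scaling, 3 and 3 with the block). Of 5 Hox-cluster miR-10 and miR-196 miRNAs 2 were lower (1 higher and 1 lower with TMM scaling, 0 and 2 with the block). Of 2 capped 3p-only miRNAs 1 was lower (0 with TMM scaling, 1 with the block). The 1 tested mirtron was not called under any of the 3 fits. Of 15 from the Sfmbt2 cluster 0 were called without the block, with or without TMM scaling, and 1 higher and 2 lower with it.

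Most miRNAs kept gaining label after 24 h. With the course as a replicate block, 388 of 426 miRNAs (91.1%) had more label per standard late than early and 4 (0.939%) less, 380 (89.2%) more at 8 h than at 1 h and 0 less, and 304 (71.4%) more at 1 week than at 24 h. Without the block edgeR called 0 of 426 in each of these contrasts, with 230, 8 and 3 at an unadjusted p under 0.05 and 259, 1 and 0 called by DESeq2. Total miRNA per count of the 22, 24 and 26 nt standards was 16.8 in course 1 and 0.802 in course 2 at 1 h, and 2662 and 89.3 at 1 week, and the fit without the block carries that difference as spread. The 4 with less label late were miR-26a-2-3p, miR-181b-2-3p, miR-365-1-5p and miR-410-5p, and only the first of them had a mean share above 100 CPM.

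Whether the early-to-late shift differed from that in dividing fibroblasts was tested over the times both lines share, 24 and 72 h against 1 to 8 h. Of 418 miRNAs, 2 shifted more upward in CIMEF (0.478%) and 3 more downward (0.718%), 1.2% in all, and with the replicate block 23 (5.5%) and 99 (23.7%), 29.2% in all. MiR-20a-5p averaged 5390.3 ± 447 CPM late and 2717 ± 1058 CPM early in CIMEF, against 8395 ± 3021 CPM late and 7630.1 ± 2703 CPM early in DMEF (SD, n = 4 late and 8 early libraries per line). MiR-17-5p averaged 4241 ± 432 CPM late and 2410.5 ± 341 CPM early in CIMEF, against 7263 ± 1956 CPM late and 6958 ± 1152 CPM early in DMEF. Both are guides of the same cluster with the seed AAAGUGC, and in dividing cells they were abundant early and late. In the other direction, miR-425-5p averaged 421 ± 36.3 CPM late and 586 ± 78.9 CPM early in CIMEF, against 845 ± 93.1 CPM late and 633 ± 173 CPM early in DMEF. The interaction had an edgeR adjusted p of 0.0233 for each of the 5, with miR-652-3p and miR-148a-3p as the others, and TMM scaling left 0 called in either direction (adjusted p 0.19 to 0.38). Leaving out 1 library also ended these calls often: miR-20a-5p kept its call in 10 of 24 omissions and miR-425-5p in 9.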

How the data were processed

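The authors deposited raw whole-number counts per mature miRNA and per synthetic standard for each library, and mRNA counts per gene for the cell line check. Cutadapt, STAR 2.4, HTSeq 0.9.1 and the mouse build mm10 (GRCm38) are named in the submitters' processing notes, and how reads were assigned to miRNAs with shared sequence is not given in the sources used here, so near-identical family members may share counts. Beside the CIMEF tables, the EU tables of dividing fibroblasts were used for 1 comparison, and tables of other lines were not used here. From the deposited counts, shares were computed as CPM (miRNA counts scaled to a library total of 1000000), and amounts per standard as counts per summed count of the 22, 24 and 26 nt standards.

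Shares and amounts were tested with the quasi-likelihood test of edgeR 4.0.16 in R 4.3.3, with the time point as a factor, edgeR's expression filter, no replicate block and Benjamini-Hochberg adjustment over all tested miRNAs (threshold 0.05). DESeq2 1.42.0, TMM and median-ratio scaling, other filters, other standards, a replicate block for the course and the omission of each library were alternatives, and the scripts were tested on simulated data. Libraries of the same course deviated together, with correlations of 0.785 to 0.947 over 21 pairs of times (logs with a pseudocount of 10 CPM), so the course numbers pair the libraries, and counts with the block are given beside the others. Half-lives were fitted in Python 3.11.15 with numpy 2.4.6, scipy 1.17.1 and pandas 2.3.3 over 400 grid points from 0.25 to 1680 h, with a noise of 0.2 on the natural log scale beside counting error, for miRNAs with at least 100 EU counts in the course. The 0 h library of course 1 was meant to serve both courses, but the standards were not comparable between them. It was therefore subtracted in the half-life fits of course 1 only, and the order of appearance was taken from course 1. Shares, passenger percentages and percentages of the 1-week amount are given without subtraction of the 0 h library.

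The text names the 10 highest and 10 lowest called share changes with a mean of at least 100 CPM and the same sign in both courses, the 8 shortest and 8 longest half-lives within 2-fold between courses, the most abundant miRNAs and list members, and the 10 hairpins with most input counts. The miRNAs and lists were chosen with earlier results of these data known. Floors of 3 counts cover counting error only, since reads are not independent molecules.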

Additional observations from a re-analysis of the deposited data

Results flagged for a closer look

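For 5 miRNAs the late minus early change of share differed between contact-inhibited and dividing fibroblasts by the edgeR interaction test, with an adjusted p of 0.0233 each. The CIMEF minus DMEF difference was 0.9177 on the log2 scale for miR-20a-5p and 0.783 for miR-17-5p. It was -0.9278 for miR-425-5p, -0.8482 for miR-652-3p and -0.8145 for miR-148a-3p. Over 24 omissions of 1 library, 9 (miR-425-5p) to 11 (miR-148a-3p) kept the call, and with TMM scaling none of the 5 was called.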

How the results depend on the processing

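The counts of share changes, 26 higher and 129 lower late, became 59 and 209 with the replicate block. TMM scaling gave 68 higher, median-ratio size factors 75 higher and 85 lower, and early and late taken as 2 groups 17 higher. Added after seeing the data, leaving out the 1 h libraries gave 15 higher and leaving out the 1 week libraries 17. Without 1 library or 1 course, 10 to 28 were higher and 78 to 124 lower, both lowest without course 2 (51 to 63 and 182 to 208 with the replicate block and 1 library less). Fits without 1 course took early and late as 2 groups, with the time points of the other course as replicates. The log2 changes of 3 miRNAs turned: let-7c-5p to 0.219 with TMM and 0.3035 with median-ratio scaling, miR-145a-3p to 0.0042 and 0.0982, and miR-30e-5p to 0.0705 with median-ratio scaling. Of 55 miRNAs with printed changes, 47 passed the test in each of 14 omissions.

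Per standard, the counts of 0 became 388 higher and 4 lower (late minus early), 380 higher (8 h minus 1 h) and 304 higher and 3 lower (1 week minus 24 h) with the replicate block. DESeq2 gave 259 and 1 higher in the first 2 contrasts, standards scaled per course 318 and 86, and the miR-14 and miR-427 standards 6 higher and 1 lower in the first. Omissions gave 0 to 259 higher and 0 lower in the first contrast, 259 without course 2 in the fit with 2 groups, and 0 in the other 2. With the replicate block they gave 357 to 407 higher and 1 to 4 lower, 314 to 398 and 0 to 1, and 213 to 316 and 0 to 4. With the block, the miR-14 and miR-427 standards gave 31 lower late and 12 lower at 8 h, the 22 or 24 nt standard alone 0 lower late, and the 24 nt standard 1 lower at 1 week.

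The counts of differences between CIMEF and DMEF, 2 higher and 3 lower, became 23 and 99 with the replicate block. TMM and no filter on low counts gave 0 and 0, median-ratio factors 0 lower, DESeq2 10 lower and the 100 CPM filter 7 lower. Omissions gave 0 to 2 higher and 0 to 4 lower (12 to 27 and 68 to 103 with the block).

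Median half-lives of 54.8 h in course 1 and 36.0 h in course 2 became 15.9 and 11.2 h with the miR-14 and miR-427 standards. In course 1 they became 165.2 h with the 24 nt standard alone and 75.4 h with at least 1000 EU counts. Half-lives under 24 h numbered 201 in course 1 and 250 in course 2 with the miR-14 and miR-427 standards, and 22 and 61 with at least 1000 counts. Half-lives over 1 week numbered 139 with the 24 nt standard in course 1, 60 with the 22 nt standard in course 2, 30 and 22 with at least 1000 counts, and 3 and 6 with the miR-14 and miR-427 standards. Leaving out 1 time gave medians of 33.7 to 54.8 h in course 1 and 30.2 to 38.9 h in course 2, 75 to 87 and 112 to 130 under 24 h, and 28 to 55 and 26 to 68 over 1 week. The lowest median of course 1 and the 68 of course 2 came without 1 week. Of the 50 miRNAs present at 1 h, 23 remained in count at a minimum of 30 counts, and the miR-14 and miR-427 standards gave 137. The cause of these changes was not tested. Depth limits the 1 h and 0 h libraries of course 1 most.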

Other observations

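MiR-122-5p, known for its abundance in liver, had 8781 CPM in the 72 h library of course 2, from 21396 counts, and 0 to 130 CPM in the other labelled libraries.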
